A study of Mus musculus with 48 samples.

Results

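The Slc25 genes encode the mitochondrial carrier family. The 40 members described here are the genes whose symbol in either expression table begins with Slc25a and a digit, with Slc25a20 left out, and the rule itself uses no measured value. They are 39 of the 11275 genes in the frozen (FROZ) table and 27 of the 6673 genes in the formalin-fixed, paraffin-embedded (FFPE) table. Of these, 26 were listed in both tables, 13 in FROZ alone and 1, Slc25a48, in FFPE alone. The GENCODE vM21 annotation has 47 protein-coding symbols of this form, and the others were not analysed here.

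The livers came from 24 male B6C3F1 mice, a hybrid mouse strain, aged 4 weeks. For 6 days the mice drank water without (the vehicle controls) or with dichloroacetic acid (DCA) at 1.0 g/L (198 mg/kg-d), 2.0 g/L (313 mg/kg-d) or 3.5 g/L (427 mg/kg-d), with 6 mice per dose. DCA is a by-product of water chlorination and an inhibitor of pyruvate dehydrogenase kinase. Each liver was divided, so that every mouse gave 1 FROZ and 1 FFPE library of the TempO-Seq assay, in which pairs of detector oligos annealed to a transcript are ligated, amplified and counted. The FROZ and FFPE pieces did not come from exactly the same liver lobes, and both had been archived for many years.

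Mitochondrial carriers sit in the inner mitochondrial membrane and pass metabolites between the cytosol and the matrix. In liver they link glycolysis, fatty acid synthesis, the urea cycle, gluconeogenesis and the respiratory chain, because the enzymes of these pathways lie on both sides of that membrane. Each carrier is built from repeats of a short fold with paired membrane helices, and most exchange one metabolite for another. A few members sit elsewhere, such as Slc25a17 of the peroxisome and Slc25a46 of the outer mitochondrial membrane.

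Values are log2(CPM + 1), where CPM are counts scaled to 1e+06 per library within a table. FROZ libraries held 6.69 to 9.84 M reads and FFPE libraries 1.83 to 6.01 M, where M is 1e+06, as recovered from the CPM of 1 read. Of the member values, 3 of 936 (0.321%) were 0 in FROZ and 24 of 648 (3.70%) were 0 in FFPE, and a value of 0 allows up to 3 reads by counting error alone. The median was under 50 reads for 14 of the 39 FROZ members and 3 of the 27 FFPE members, and these carry the least weight. Slc25a53 had a median of 3 reads in FROZ and was at or below 3 reads in 14 of 24 libraries. In 4 FFPE libraries, 3 at 198 mg/kg-d and 1 at 313 mg/kg-d, over 1000 genes were at 0. A difference was called by limma at a false discovery rate (FDR, Benjamini-Hochberg over all genes of a table) under 0.05. A gene was a DEG when its fold change on the CPM + 1 scale was also above 2. The liver tissue is a mixture of cells, so fewer cells of a type and less RNA per cell cannot be told apart.

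In FROZ liver, 12 of 39 members were higher and 2 were lower at 427 mg/kg-d than in the vehicle controls. The increases included carriers of glutamate, coenzyme A, glutathione, aspartate, branched-chain amino acids, iron and ADP/ATP, together with the hepatocyte carrier Slc25a47. The members called made up 35.9% of the 39, against 30.1% of all FROZ genes at this dose, and the background was 22.7% for higher, 7.33% for lower and 3.5% for DEGs, of which the family had 2. At 313 mg/kg-d, 8 members were higher and 1 was lower, a share of 23.1% against 26.7% of all genes (20.5% higher and 6.15% lower). At 198 mg/kg-d none was called by limma, against 1.56% of all genes, and 8 of 39 had an unadjusted p under 0.05, a level reached by 17.1% of all genes. On this scale the shares of members called at 313 and 427 mg/kg-d were near those of the table as a whole.

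The middle of the family moved little. The median log2 fold change over the 39 members was -0.01 at 198, 0.13 at 313 and 0.18 at 427 mg/kg-d, beside 0.07, 0.11 and 0.10 over all FROZ genes. Member values at 427 mg/kg-d ran from -0.72 for Slc25a35 to 1.39 for Slc25a47. Each library was also scaled by a median of gene ratios (median-ratio scaling). In FROZ this placed the median over all genes within 0.01 of 0 at every dose. In FFPE it left medians over all genes of -0.19, -0.14 and 0.08 in rising order of dose. With this scaling in FROZ, 11 of the 39 members were higher and 3 lower at 427 mg/kg-d, against 12.6% of all genes higher and 12.6% lower. At 313 mg/kg-d, 4 of the 39 were higher and 3 lower, against 10.3% and 10.8% of all genes. Under that scaling Slc25a11 was not called at 427 mg/kg-d, Slc25a23 was called lower at that dose, and Slc25a16 and Slc25a14 were called lower at 313 mg/kg-d. The calls of Slc25a13, Slc25a17, Slc25a42 and Slc25a46 at 313 mg/kg-d were lost under it. On the deposited scale, all 6 FROZ livers of the highest dose lay above the highest control for 11 of the 39 members, against 11.4% of all genes. The 6 lay below the lowest control for 1 of the 39 members, Slc25a35, against 3.27% of all genes.

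**Figure D1:**
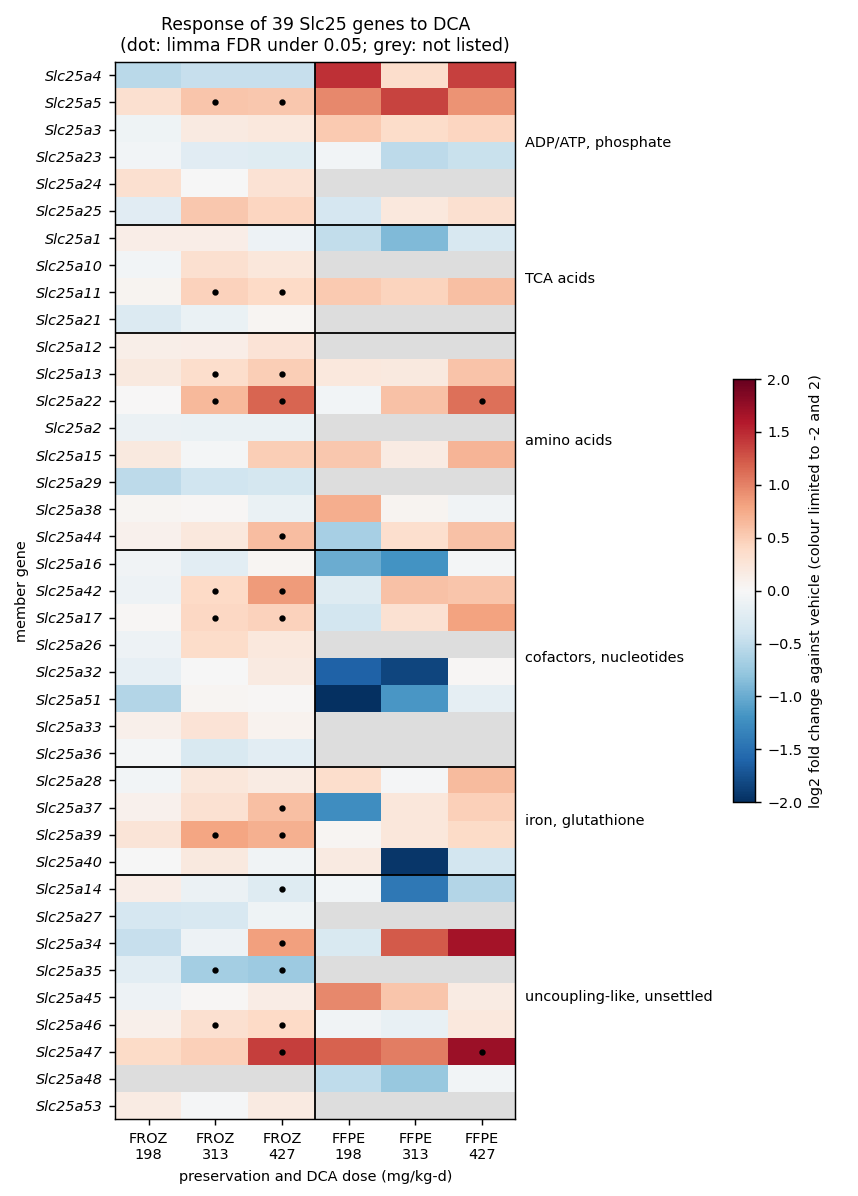
Log2 fold change of 39 of the 40 members against the vehicle controls, in FROZ (left) and FFPE (right), by DCA dose in mg/kg-d and grouped by what the carriers transport. Dots mark limma FDR under 0.05 and grey marks genes not listed in a table. In FROZ, dots are absent at 198 mg/kg-d and mark 9 members at 313 and 14 at 427 mg/kg-d, while in FFPE only Slc25a22 and Slc25a47 have one, both at 427 mg/kg-d.

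The largest increase was that of Slc25a47 (chr12:108836046-108856815, GRCm38, plus strand), a carrier made almost solely by hepatocytes whose substrate is not settled. Its FROZ values, given as the lowest, median and highest of 6 livers, were 4.49, 4.92 and 5.73 in the controls and 4.67, 5.40 and 5.89 at 198 mg/kg-d. They were 5.03, 5.32 and 6.21 at 313 and 6.13, 6.33 and 6.84 at 427 mg/kg-d. The groups at 198 and 313 mg/kg-d overlapped the controls, whereas every liver at 427 mg/kg-d lay above every control. The log2 fold change at 427 mg/kg-d was 1.39 ± 0.21 (SE, FDR = 1.46e-05), a fold change of 2.62 on the CPM + 1 scale, which understates changes of low genes. The step from 313 to 427 mg/kg-d was itself called, at 0.91 ± 0.21 (SE, FDR = 0.0171). The neighbouring member Slc25a29, a carrier of basic amino acids, starts 162 bases from the GENCODE start of Slc25a47 on the opposite strand, and its log2 fold change at 427 mg/kg-d was -0.35 ± 0.20 (SE, FDR = 0.187).

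Slc25a22 (chr7:141429744-141437892, minus strand), a carrier that brings glutamate into the matrix, was the other DEG. The FROZ controls had 6.35, 6.77 and 7.27, and the livers at 198 mg/kg-d had 6.35, 6.74 and 7.43. At 313 mg/kg-d the values were 7.20, 7.56 and 7.64, and at 427 mg/kg-d they were 7.87, 7.98 and 8.11. The controls and the group at 198 mg/kg-d overlapped, 5 of 6 livers at 313 mg/kg-d lay above every control, and all 6 did at 427 mg/kg-d. Against the controls, the log2 fold change was 0.64 ± 0.14 (SE, FDR = 0.00137) at 313 and 1.16 ± 0.14 (SE, FDR = 5.08e-07) at 427 mg/kg-d, the latter a fold change of 2.24. The step from 198 to 313 mg/kg-d was 0.64 ± 0.14 (SE, FDR = 0.00344), and that from 313 to 427 mg/kg-d was 0.52 ± 0.14 (SE, FDR = 0.0437).

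The promoters of these DEGs are shown with those of Slc25a34, which made the largest step between adjacent doses in FROZ, and Slc25a39, which had the smallest FDR in FROZ at 313 and 427 mg/kg-d. They are shown because 3 of the 4 hold the letters AGGTCA, the half-site that many nuclear receptors of liver bind, on one strand. A set shown for this reason does not measure how often responding members hold these letters. They stood in 13.3% of the matched member promoters and 13.8% of all promoters. Each sequence is the 250 bases before the first listed RefSeq start (GRCm38.p6), printed 5′ to 3′ on the strand of the gene, with AGGTCA on either strand (TGACCT on the opposite one) in capitals.
Slc25a47, chr12:108850879-108851128, plus strand: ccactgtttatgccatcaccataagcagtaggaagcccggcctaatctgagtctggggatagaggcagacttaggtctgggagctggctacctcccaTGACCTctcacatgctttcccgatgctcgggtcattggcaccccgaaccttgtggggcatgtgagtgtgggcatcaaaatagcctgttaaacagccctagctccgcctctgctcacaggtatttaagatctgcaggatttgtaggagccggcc
Slc25a22, chr7:141437875-141438124, minus strand: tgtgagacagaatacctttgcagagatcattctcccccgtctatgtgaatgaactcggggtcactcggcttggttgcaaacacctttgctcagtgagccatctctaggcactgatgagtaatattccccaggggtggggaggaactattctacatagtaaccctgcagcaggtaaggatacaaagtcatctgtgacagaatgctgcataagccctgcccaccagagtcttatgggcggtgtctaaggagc
Slc25a34, chr4:141623835-141624084, minus strand: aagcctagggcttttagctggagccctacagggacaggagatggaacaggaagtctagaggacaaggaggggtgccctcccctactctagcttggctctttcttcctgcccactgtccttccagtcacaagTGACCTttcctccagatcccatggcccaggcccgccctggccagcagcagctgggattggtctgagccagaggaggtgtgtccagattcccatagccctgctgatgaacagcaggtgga
Slc25a39, chr11:102407518-102407767, minus strand: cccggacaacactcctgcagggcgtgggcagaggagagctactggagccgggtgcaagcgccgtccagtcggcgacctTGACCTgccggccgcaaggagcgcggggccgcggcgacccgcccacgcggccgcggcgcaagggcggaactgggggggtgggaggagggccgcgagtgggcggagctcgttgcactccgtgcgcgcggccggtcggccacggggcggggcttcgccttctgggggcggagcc
Slc25a22 had 3 RefSeq starts listed and the others 1 each. The RefSeq start of Slc25a47 lies inside the span that GENCODE gives the gene, so its distance from Slc25a29 depends on which start is used.

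A RefSeq promoter was matched for 30 of the 40 members. AGGTCA on either strand stood in 4 of the 30 (13.3%), those of Slc25a34, Slc25a39, Slc25a45 and Slc25a47, and in 13.8% of the 27025 promoters of all genes. A direct repeat of AGGTCA with 1 free base between the copies was in none of the 30 and in 0.037% of all. The E-box CACGTG was in 5 members (16.7%), those of Slc25a1, Slc25a13, Slc25a14, Slc25a33 and Slc25a36, and in 6.05% of all. The CCAAT box was in 15 of 30 (50%) and 34.5% of all, and the GC box GGGCGG in 21 of 30 (70%) and 32.9% of all. The members had passed the expression filter of a table, whereas the promoters of all genes were taken without one. The shares are therefore not a like comparison. A match describes these letters in this window and nothing about binding.

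Among the other amino acid carriers, 2 of the remaining 7 FROZ members were called higher at 427 mg/kg-d, Slc25a13 and Slc25a44. Slc25a13, known as citrin (chr6:6041218-6217173, minus strand), exports aspartate for the urea cycle and the malate-aspartate shuttle. Its FROZ values were 10.08, 10.11 and 10.36 in controls and 10.12, 10.41 and 10.49 at 198 mg/kg-d. They were 10.26, 10.53 and 10.71 at 313 and 10.49, 10.68 and 10.73 at 427 mg/kg-d. The medians stood in dose order, and the livers at the highest dose were all above the controls. Its log2 fold change was 0.35 ± 0.09 (SE, FDR = 0.0041) at 313 (not called with median-ratio scaling) and 0.50 ± 0.09 (SE, FDR = 8.75e-05) at 427 mg/kg-d.

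Slc25a44 (chr3:88410498-88425139, minus strand), which imports branched-chain amino acids, had 5.13, 5.32 and 5.58 in the FROZ controls and 5.85, 5.91 and 6.11 at 427 mg/kg-d. At the lower doses the values overlapped the controls, with 5.03, 5.47 and 5.70 at 198 and 5.23, 5.47 and 5.89 at 313 mg/kg-d. Its log2 fold change was 0.21 ± 0.12 (SE, FDR = 0.21) at 313 and 0.62 ± 0.12 (SE, FDR = 0.000215) at 427 mg/kg-d. Slc25a15, the ornithine-citrulline exchanger of the urea cycle, was not called: its values were 6.37, 6.53 and 7.44 in controls and 6.66, 7.16 and 7.56 at 427 mg/kg-d, with a log2 fold change of 0.49 ± 0.20 (SE, FDR = 0.0713). Without FROZ control animal 3 this value was 0.64 (FDR = 0.0150), and without animal 97 of the highest dose it was 0.59 (FDR = 0.0327). The 4 members Slc25a2, Slc25a12, Slc25a29 and Slc25a38 had log2 fold changes from -0.35 to 0.27 at 427 mg/kg-d, none called.

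**Figure D2:**
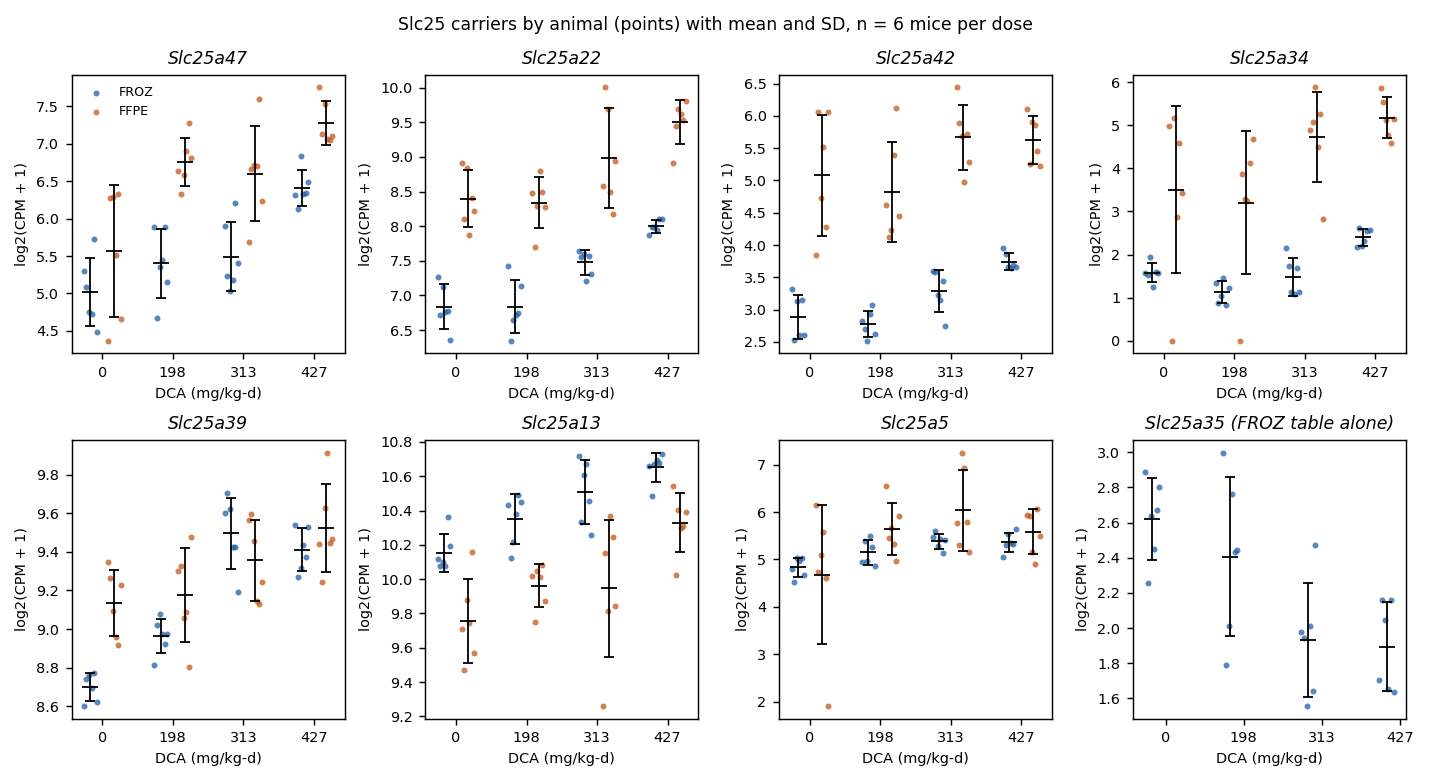
Values of 8 members in log2(CPM + 1) by DCA dose, with 1 point per mouse for FROZ (blue) and FFPE (orange) and bars for mean and SD of 6 mice. FROZ points at 427 mg/kg-d sit above every FROZ control for Slc25a47, Slc25a22, Slc25a42, Slc25a34, Slc25a39, Slc25a13 and Slc25a5 and below every control for Slc25a35, and FFPE points of Slc25a47 and Slc25a22 at that dose also sit above every FFPE control.

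Of the 9 carriers of coenzyme A, nucleotides and other cofactors in FROZ, 2 were higher at 427 mg/kg-d. Slc25a42 (chr8:70184340-70212305, minus strand) brings coenzyme A into mitochondria. Its FROZ values were 2.53, 2.87 and 3.31 in the controls, 2.52, 2.77 and 3.07 at 198, 2.75, 3.34 and 3.60 at 313 and 3.64, 3.67 and 3.95 at 427 mg/kg-d. The livers at 427 mg/kg-d formed a narrow group above all others, and those at 313 mg/kg-d still overlapped the controls. On the log2 scale the change was 0.40 ± 0.15 (SE, FDR = 0.0493) at 313 (not called with median-ratio scaling) and 0.85 ± 0.15 (SE, FDR = 9.18e-05) at 427 mg/kg-d. Slc25a17, which carries coenzyme A and FAD in peroxisomes, had 8.23, 8.30 and 8.49 in the controls and 8.53, 8.82 and 8.96 at 427 mg/kg-d, and its log2 fold change was 0.41 ± 0.10 (SE, FDR = 0.00282) at 313 (not called with median-ratio scaling) and 0.46 ± 0.10 (SE, FDR = 0.000721) at 427 mg/kg-d. The other 7, which include the carriers of S-adenosylmethionine (Slc25a26), folate (Slc25a32) and NAD (Slc25a51), lay between -0.22 and 0.22 at 427 mg/kg-d with none called.

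Among the iron and glutathione carriers, Slc25a39 and Slc25a37 were higher at 427 mg/kg-d, and Slc25a28 and Slc25a40 were not called. Slc25a39 (chr11:102402985-102407946, minus strand) imports glutathione into the matrix. Its FROZ values were 8.60, 8.72 and 8.77 in the controls and 8.82, 8.97 and 9.08 at 198 mg/kg-d. They were 9.19, 9.52 and 9.71 at 313 and 9.27, 9.41 and 9.54 at 427 mg/kg-d. None of the treated livers overlapped the controls at any dose, and the higher doses lay close together. Against the controls, the log2 fold change was 0.26 ± 0.08 (SE, FDR = 0.0789), 0.80 ± 0.08 (SE, FDR = 4.75e-08) and 0.71 ± 0.08 (SE, FDR = 1.03e-07) in rising order of dose. The step from 198 to 313 mg/kg-d was 0.53 ± 0.08 (SE, FDR = 5.01e-05) and that from 313 to 427 mg/kg-d was -0.09 ± 0.08 (SE, FDR = 0.619). Its paralogue Slc25a40 had -0.08 ± 0.13 (SE, FDR = 0.693) at 427 mg/kg-d.

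Slc25a37, mitoferrin-1, takes iron into mitochondria and is best known from developing red cells. FROZ values were 3.89, 4.17 and 4.54 in controls and 4.54, 4.81 and 5.05 at 427 mg/kg-d, and all livers at the highest dose lay above the controls. Its log2 fold change was 0.61 ± 0.17 (SE, FDR = 0.00613), and its probe was among those attenuated in the assay. Of 6 listed erythroid markers, 2 were lower at this dose, Alas2 at -1.05 ± 0.23 (SE, FDR = 0.00105) and Hba-a1 at -0.69 ± 0.21 (SE, FDR = 0.0125), and none was higher. Of all FROZ genes, 7.33% were lower and 22.7% higher at this dose. The 6 markers summed to 43.4 to 87 CPM in the controls and 25.3 to 54.9 CPM at 427 mg/kg-d, and their part in the result was not tested. Windows of 50 bases that also occur elsewhere, most in Gm16867, make up 6.99% of Slc25a37, which has antisense neighbours. The site of its probe was not known, so whether this touches its counts was not tested. Slc25a38, the glycine carrier needed for heme synthesis, had -0.13 ± 0.11 (SE, FDR = 0.415).

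The ADP/ATP and phosphate carriers include the most abundant proteins of the family in the inner membrane. Of 6 such members in FROZ, 1 was called. Slc25a5, the ADP/ATP translocase Ant2 (chrX:36795651-36798807, plus strand), had 4.52, 4.87 and 5.03 in the controls and 4.86, 5.12 and 5.50 at 198 mg/kg-d. It had 5.14, 5.42 and 5.60 at 313 and 5.06, 5.33 and 5.64 at 427 mg/kg-d, and both upper groups lay above all controls. Its log2 fold change was 0.56 ± 0.12 (SE, FDR = 0.000974) at 313 and 0.53 ± 0.12 (SE, FDR = 0.00107) at 427 mg/kg-d. Of its 50-base windows, 33.8% occur in other genes, most often in Gm5560. The site of its probe was not known, so whether reads assigned to it could come from those genes was not tested.

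Slc25a4, the translocase Ant1 of heart and muscle, had 1.91, 2.25 and 6.29 in the FROZ controls and 2.06, 2.45 and 3.17 at 427 mg/kg-d. The highest control, animal 5 at 6.29, stood far above the next, at 3.08. Its log2 fold change was -0.45 ± 0.45 (SE, FDR = 0.491), and without animal 5 it was 0.21 (FDR = 0.493). Slc25a3, the phosphate carrier, had 7.26, 7.39 and 7.53 in the controls and 7.36, 7.58 and 7.99 at 427 mg/kg-d, with 0.20 ± 0.10 (SE, FDR = 0.132). The probes of Slc25a3 and Slc25a4 were attenuated too, so their levels are not comparable with those of other genes. The calcium-regulated ATP-Mg carriers Slc25a23, Slc25a24 and Slc25a25 were at -0.24 ± 0.15 (SE, FDR = 0.241), 0.29 ± 0.16 (SE, FDR = 0.192) and 0.43 ± 0.27 (SE, FDR = 0.243).

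Of the 4 carriers of tricarboxylic acid cycle acids, Slc25a11 alone was called. Slc25a11 exchanges 2-oxoglutarate for malate and is the partner of citrin in the malate-aspartate shuttle. FROZ values were 5.66, 6.10 and 6.49 in the controls, 6.41, 6.53 and 6.76 at 313 and 6.16, 6.52 and 6.81 at 427 mg/kg-d, with a log2 fold change of 0.46 ± 0.12 (SE, FDR = 0.00448) and 0.41 ± 0.12 (SE, FDR = 0.00935), respectively. At 427 mg/kg-d, 3 of 6 livers lay above every control and the others overlapped. It overlaps exons of Rnf167 on the opposite strand. Slc25a1, the citrate carrier that supplies fatty acid synthesis, had 3.39, 3.72 and 3.98 in the controls and 3.26, 3.60 and 3.90 at 427 mg/kg-d, fully overlapping, with -0.11 ± 0.15 (SE, FDR = 0.63). Slc25a10, the dicarboxylate carrier, had 2.04, 2.39 and 3.06 and 1.71, 2.57 and 3.52, with 0.23 ± 0.22 (SE, FDR = 0.488). Slc25a21, for oxodicarboxylates, had 0.04 ± 0.12 (SE, FDR = 0.852).

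Members with uncoupling-protein-like sequence or an unsettled substrate moved in both directions. Of 8 in FROZ, 3 were higher at 427 mg/kg-d (Slc25a47, Slc25a34 and Slc25a46) and 2 were lower (Slc25a35 and Slc25a14). Slc25a34 (chr4:141618824-141623821, minus strand) had 1.25, 1.57 and 1.94 in the controls and 0.83, 1.13 and 1.45 at 198 mg/kg-d. It had 1.07, 1.41 and 2.15 at 313 and 2.17, 2.42 and 2.62 at 427 mg/kg-d, so that only the highest dose lay clear of the controls. On the log2 scale the change was -0.45 ± 0.17 (SE, FDR = 0.154) at 198 and 0.82 ± 0.17 (SE, FDR = 0.000442) at 427 mg/kg-d, and the step from 313 to 427 mg/kg-d was 0.92 ± 0.17 (SE, FDR = 0.0024). The gene is scarce in FROZ, with 6 to 46 reads per library and a median of 17. Its mean was 2.01 CPM in the controls and 4.33 CPM at 427 mg/kg-d, and on the CPM + 1 scale it was not a DEG.

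Slc25a35 (chr11:68968131-68974365, plus strand), whose substrate is likewise unsettled, had 2.25, 2.66 and 2.89 in the controls and 1.79, 2.44 and 3.00 at 198 mg/kg-d. It had 1.56, 1.96 and 2.47 at 313 and 1.64, 1.88 and 2.16 at 427 mg/kg-d. Most livers of the upper doses lay below the controls, and at 427 mg/kg-d all did. Against the controls, the log2 fold change was -0.68 ± 0.18 (SE, FDR = 0.00661) at 313 and -0.72 ± 0.18 (SE, FDR = 0.00336) at 427 mg/kg-d, from 13 to 56 reads per library, and exons of Rangrf overlap it on the opposite strand.

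Slc25a14, a relative of the uncoupling proteins, had 4.21, 4.37 and 4.47 in the controls and 3.96, 4.08 and 4.26 at 427 mg/kg-d, with some overlap and a log2 fold change of -0.26 ± 0.09 (SE, FDR = 0.0285). This call was lost when any one of control animal 4 and animals 99, 101 and 102 of the highest dose was left out, with FDR between 0.0537 and 0.0689. Slc25a46, an outer-membrane protein that acts in mitochondrial shape, had 7.36, 7.63 and 7.75 in the controls and 7.80, 8.03 and 8.13 at 427 mg/kg-d, with 0.32 ± 0.08 (SE, FDR = 0.00445) at 313 (not called with median-ratio scaling) and 0.39 ± 0.08 (SE, FDR = 0.000485) at 427 mg/kg-d. Slc25a27, Slc25a45 and Slc25a53 were between -0.08 and 0.17 at 427 mg/kg-d, none called.

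Dose dependence was also fitted as a straight line in log2 units per 100 mg/kg-d. In FROZ, 12 of 39 members had a rising and 2 a falling slope, against 24.4% and 7.73% of all genes. The steepest was that of Slc25a47, at 0.29 ± 0.05 (SE, FDR = 0.000117), followed by Slc25a22 at 0.28 ± 0.04 (SE, FDR = 7.23e-06), Slc25a42 at 0.20 ± 0.04 (SE, FDR = 0.000422) and Slc25a39 at 0.19 ± 0.02 (SE, FDR = 3.74e-07). Slc25a35 had the steepest fall, at -0.19 ± 0.04 (SE, FDR = 0.000933). Between adjacent doses, 7 of 39 members (17.9%) were higher at 313 than at 198 mg/kg-d, against 8.05% of all genes called higher. They were Slc25a39, Slc25a22, Slc25a17, Slc25a11, Slc25a42, Slc25a26 and Slc25a51. With median-ratio scaling 5 were higher and 1 was lower in this step. The steps of Slc25a26 and Slc25a51 were 0.46 ± 0.14 (SE, FDR = 0.0345) and 0.62 ± 0.19 (SE, FDR = 0.0354). From 313 to 427 mg/kg-d, 3 of 39 members (7.69%) were higher (Slc25a34, Slc25a47 and Slc25a22), against 1.73% of all genes, and none was lower.

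In FFPE liver, Slc25a47 and Slc25a22 were again higher at 427 mg/kg-d, and both were DEGs. No other of the 27 members was called at any dose. The 2 calls at 427 mg/kg-d are 7.41% of the members, against 2.41% of all FFPE genes (1.54% called higher and 1.81% DEGs). The same pair, 7.41% of the members, had a rising slope, against 1.51% of all genes. At 198 mg/kg-d none was called by limma against 0.0599% of all genes, and at 313 mg/kg-d none against 1.08%. FFPE libraries of these 2 doses were shallower, with medians of 3.38 M and 3.82 M reads. The controls had 5.28 M and the livers at 427 mg/kg-d 5.10 M. Median genes at 0 were 285, 986, 634.5 and 136.5 from the controls upward in dose. The part of depth in the FFPE calls, medians and slopes was not tested. Unadjusted p-values under 0.05 were found for 2, 6 and 6 of 27 members in rising order of dose, beside 11.8, 11.7 and 8.71% of all genes. The medians over members were -0.05, 0.21 and 0.43, beside -0.19, -0.12 and 0.18 over all FFPE genes.

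Slc25a47 had FFPE values of 4.37, 5.90 and 6.32 in the controls and 6.33, 6.72 and 7.27 at 198 mg/kg-d. It had 5.69, 6.68 and 7.61 at 313 and 7.06, 7.12 and 7.76 at 427 mg/kg-d. All livers at 198 and at 427 mg/kg-d lay above the highest control, while those at 313 mg/kg-d overlapped the controls. Its log2 fold change was 1.19 ± 0.35 (SE, FDR = 0.236), 1.03 ± 0.35 (SE, FDR = 0.2) and 1.70 ± 0.35 (SE, FDR = 0.00339) in rising order of dose, and the slope was 0.37 ± 0.08 (SE, FDR = 0.00717) per 100 mg/kg-d.

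Slc25a22 had FFPE values of 7.88, 8.32 and 8.91 in the controls, 7.70, 8.39 and 8.80 at 198, 8.18, 8.76 and 10.01 at 313 and 8.92, 9.57 and 9.81 at 427 mg/kg-d. As in FROZ, the controls and the lowest dose overlapped, and the highest dose lay above all controls, here by a small margin. The log2 fold change at 427 mg/kg-d was 1.11 ± 0.26 (SE, FDR = 0.0114), and the slope was 0.26 ± 0.06 (SE, FDR = 0.0147). With a variance prior that does not follow the mean, this call was lost (FDR = 0.0909). Slc25a47 and Slc25a22 were the only 2 of the 27 members above every control in all 6 FFPE livers at 427 mg/kg-d, against 2.94% of all genes.

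Slc25a13 came next, with 9.47, 9.73 and 10.16 in the FFPE controls and 10.03, 10.35 and 10.54 at 427 mg/kg-d and a log2 fold change of 0.57 ± 0.17 (SE, FDR = 0.0667). It was called when the 4 libraries with over 1000 genes at 0 were left out (FDR = 0.0326), and also without control animal 7 (FDR = 0.0357), animal 53 of 198 mg/kg-d (FDR = 0.0475) or animal 73 of 313 mg/kg-d (FDR = 0.0282) alone. Slc25a39 had 8.92, 9.16 and 9.35 and 9.25, 9.46 and 9.92, overlapping at the edge, with 0.39 ± 0.16 (SE, FDR = 0.373). Slc25a34 had 0.00, 4.00 and 5.16 and 4.59, 5.13 and 5.88, with 1 control at 0, and its log2 fold change was 1.67 ± 0.85 (SE, FDR = 0.63). Without that control, animal 4, it was 0.97 (FDR = 0.962). Slc25a42 had 3.84, 5.12 and 6.06 and 5.22, 5.66 and 6.11, with 0.55 ± 0.49 (SE, FDR = 0.982). Slc25a5 had 1.91, 4.91 and 6.14 and 4.91, 5.71 and 6.07, with 0.90 ± 0.55 (SE, FDR = 0.796), and without its low control, animal 8, the value was 0.35 (FDR = 0.998).

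Further members called in FROZ had FFPE log2 fold changes at 427 mg/kg-d of 0.59 ± 0.68 (SE, FDR = 1) for Slc25a44, 0.47 ± 0.68 (SE, FDR = 1) for Slc25a37 and -0.59 ± 0.99 (SE, FDR = 1) for Slc25a14. Without animal 100, which was at 0, the value of Slc25a14 was 0.07 (FDR = 0.999). The 12 members called higher in FROZ were all listed in FFPE. All 12 were above 0 there at 427 mg/kg-d, where 62.2% of all FFPE genes were above 0, with a lowest of 0.22, a median of 0.60 and a highest of 1.70. The FROZ and FFPE libraries came from the same mice, so these are repeated measurements of the same livers. The 12 were chosen for their rise in FROZ, so the share over all FFPE genes is not a like comparison. The share above 0 among all genes called higher in FROZ was not computed. The standard error at 427 mg/kg-d was larger in FFPE for each of the 26 members listed in both tables, with a median of 0.50 against 0.13 in FROZ.

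Among the remaining named members in FFPE, none was called. Slc25a15 had 6.51, 7.64 and 8.17 in the controls and 7.83, 8.12 and 8.32 at 427 mg/kg-d, with 0.68 ± 0.32 (SE, FDR = 0.53). Slc25a3 had 5.25, 5.56 and 6.39 and 5.75, 6.07 and 6.42, with 0.43 ± 0.38 (SE, FDR = 0.978). Slc25a4 had 0.29, 2.79 and 4.05 and 2.40, 3.92 and 4.80, with 1.37 ± 1.01 (SE, FDR = 0.906). Slc25a1 had 2.84, 3.45 and 4.04 and 2.12, 3.17 and 3.97, with -0.33 ± 0.89 (SE, FDR = 1). Slc25a48, listed in FFPE alone, had -0.05 ± 0.73 (SE, FDR = 1).

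**Figure D3:**
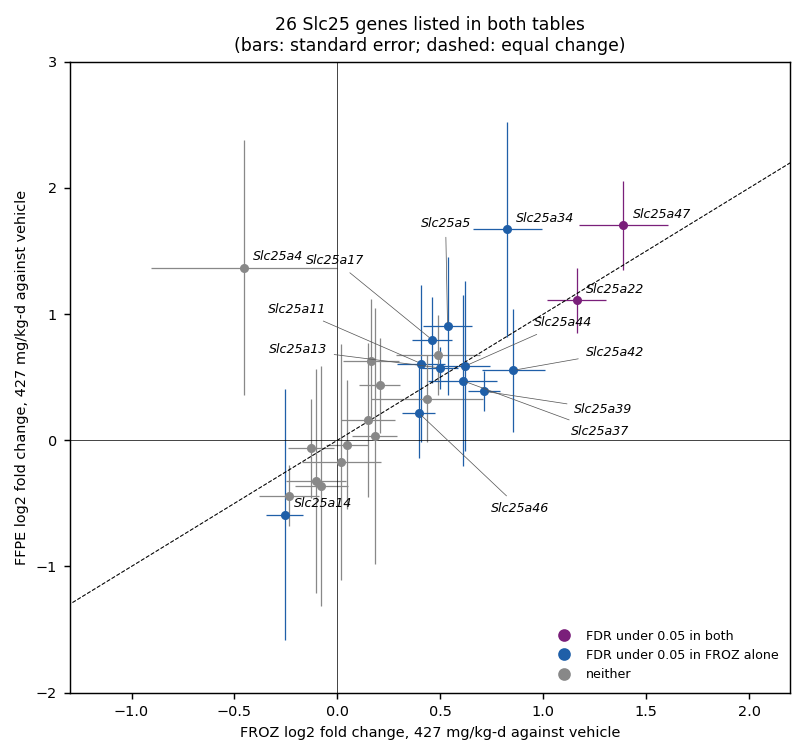
Log2 fold change at 427 mg/kg-d against vehicle in FROZ (x axis) and FFPE (y axis) for the 26 members in both tables, with bars for the standard error. Slc25a47 (1.39 and 1.70) and Slc25a22 (1.16 and 1.11) were called in both, the members called in FROZ alone have FFPE values from -0.59 to 1.67, and Slc25a4 lies at -0.45 in FROZ and 1.37 in FFPE with wide bars.

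Whether the response to DCA differed between preservations was tested within mice, on the FFPE value minus the FROZ value, with CPM rescaled to the 6591 shared genes. No member was called by limma at any dose, against 0.0303, 0 and 0.0303% of all shared genes in rising order of dose. Unadjusted p-values under 0.05 were found for 2, 2 and 0 of 26 members. They were Slc25a45 and Slc25a47 at 198 mg/kg-d and Slc25a39 and Slc25a40 at 313 mg/kg-d. For Slc25a39 the FFPE response at 313 mg/kg-d minus the FROZ response was -0.58 (95% interval -1.02 to -0.14) on the log2 scale. At 427 mg/kg-d this difference was 0.31 (95% interval -0.45 to 1.07) for Slc25a47 and -0.06 (95% interval -0.65 to 0.54) for Slc25a22. For Slc25a34 it was 0.83 (95% interval -0.78 to 2.45), for Slc25a42 -0.31 (95% interval -1.20 to 0.59) and for Slc25a13 0.07 (95% interval -0.42 to 0.56). The intervals leave room for differences of a size near that of the responses, and do not show that the preservations responded alike.

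The level of a carrier differed between FFPE and FROZ libraries of the same mouse for most members over all doses. Of 26 members, 12 were higher in FFPE, 11 were lower and 3 (Slc25a4, Slc25a5 and Slc25a39) were not called. This is 88.5%, against 75.3% of all shared genes (40.1% higher and 35.2% lower in FFPE). Slc25a23 was highest in FFPE relative to FROZ, at a log2 difference of 2.80 ± 0.10 (SE, FDR = 1.88e-17). Slc25a34, Slc25a25 and Slc25a42 followed, at 2.47 ± 0.28 (SE, FDR = 2.66e-08), 2.09 ± 0.12 (SE, FDR = 1.51e-13) and 2.07 ± 0.15 (SE, FDR = 2.01e-11). Slc25a32 had the lowest, at -2.49 ± 0.35 (SE, FDR = 1.21e-06), ahead of Slc25a11 at -1.74 ± 0.18 (SE, FDR = 7.77e-09) and Slc25a3 at -1.56 ± 0.12 (SE, FDR = 6.54e-11).

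Of the DCA-responsive members, Slc25a22 was higher in FFPE in all 24 mice, at 1.46 ± 0.10 (SE, FDR = 6.76e-12), and Slc25a47 in 22 of 24, at 0.91 ± 0.13 (SE, FDR = 1.2e-06). Slc25a13 was lower in FFPE in all 24, at -0.48 ± 0.08 (SE, FDR = 1.99e-05), and Slc25a39 was not called, at 0.10 ± 0.07 (SE, FDR = 0.25). Altogether 5 members were higher in FFPE in 24 of 24 mice and 6 were lower in 24 of 24. Fixation, storage, sample age, the lobes sampled, the input (isolated RNA or lysed sections) and library depth differed together between the preservations. Their parts cannot be told apart.

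**Figure D4:**
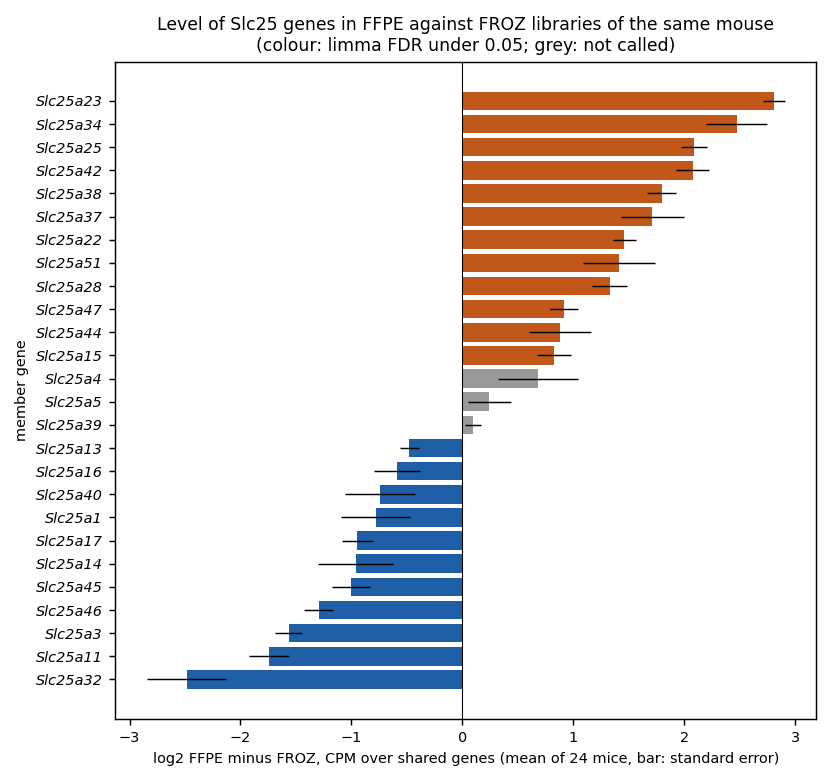
Mean log2 difference between the FFPE and the FROZ library of a mouse for the 26 members in both tables (x axis, CPM over shared genes), with bars for the standard error over 24 mice. Orange marks members called higher in FFPE, blue those called lower and grey those not called, from Slc25a23 at 2.80 to Slc25a32 at -2.49.

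Mitochondrial transporters outside the symbol rule were compared at 427 mg/kg-d in FROZ. Of 22 chosen, 19 were listed, 7 were higher and 1 was lower, against 22.7% of all genes higher and 7.33% lower. Ucp2, an uncoupling protein of the same carrier fold, was at 1.07 ± 0.21 (SE, FDR = 0.000371). Mpc2, a subunit of the pyruvate carrier, was at 0.61 ± 0.08 (SE, FDR = 1.12e-06). The partner subunit Mpc1 was not called, at 0.001 ± 0.12 (SE, FDR = 0.996). The outer-membrane channel genes Vdac1, Vdac2 and Vdac3 and Micu2, a regulator of the calcium uniporter, were also higher, by 0.18 to 0.45 for the Vdac genes. Slc8b1, the sodium-calcium exchanger, fell, at -0.92 ± 0.19 (SE, FDR = 0.000548). With median-ratio scaling 5 of the 19 were higher and 1 lower, against 12.6% and 12.6% of all genes. Of 12 listed in FFPE, none was called at 427 mg/kg-d, against 2.41% of all FFPE genes. With median-ratio scaling 1 was lower, against 1.18% of all FFPE genes.

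The import route that inserts carriers into the inner membrane, made of outer-membrane translocase and small Tim proteins, had 9 of 12 listed genes higher in FROZ at 427 mg/kg-d and none lower, against 22.7% of all genes higher. With median-ratio scaling 5 of 12 were higher, against 12.6% of all genes. Timm10, a chaperone of the intermembrane space, was at 1.12 ± 0.15 (SE, FDR = 1.9e-06), Tomm40, the channel of the outer membrane, at 0.63 ± 0.09 (SE, FDR = 6.35e-06) and Timm29, a subunit of the Tim22 complex, at 0.57 ± 0.12 (SE, FDR = 0.000506). Timm22, the insertion channel itself, was at 0.36 ± 0.08 (SE, FDR = 0.00134). The median log2 fold change of the 12 was 0.38, beside 0.10 over all genes. In FFPE, 1 of 10 was called, Tomm40 at 0.86 ± 0.22 (SE, FDR = 0.0275), against 1.54% of all genes higher, and with median-ratio scaling none was.

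Enzymes that work with these carriers were read as short lists. At 427 mg/kg-d, 22.7% of all FROZ genes were higher and 7.33% lower. With median-ratio scaling these shares were 12.6% and 12.6%. In FFPE, 1.54% of all genes were higher. Of 5 listed shuttle enzymes, Gpd1, the cytosolic glycerol 3-phosphate dehydrogenase, and Got2, the mitochondrial aspartate aminotransferase beside citrin and Slc25a22, were higher in FROZ at 427 mg/kg-d, at 1.01 ± 0.14 (SE, FDR = 4.43e-06) and 0.33 ± 0.08 (SE, FDR = 0.00378). With median-ratio scaling 1 of these 5 was called. Gpd1 was also higher in FFPE, at 0.92 ± 0.17 (SE, FDR = 0.00117), 1 of 4 listed there. Of 5 enzymes around the citrate carrier, 2 were higher in FROZ at 427 mg/kg-d and none was lower. Citrate synthase Cs was among the 2, at 0.58 ± 0.09 (SE, FDR = 1.42e-05). With median-ratio scaling 2 of these 5 were higher and 1 was lower. In FFPE, 1 of the 5 was higher with either scaling. Of 5 urea cycle enzymes, argininosuccinate lyase Asl was at 0.27 ± 0.10 (SE, FDR = 0.0355) and ornithine transcarbamylase Otc, which uses the ornithine that Slc25a15 imports, fell, at -0.49 ± 0.11 (SE, FDR = 0.00139). With median-ratio scaling none of the 5 was higher and 2 were lower. None of the 4 listed in FFPE was called.

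Markers of liver cell types were read beside these results at 427 mg/kg-d in FROZ, and their part in them was not tested. At this dose 22.7% of all FROZ genes were higher and 7.33% lower. Of 9 hepatocyte markers chosen, 8 were listed, with control means from 2.54 for Cps1 to 14.24 for Apoa1. The paper reports that very abundant transcripts were attenuated in the assay, so these levels may not be comparable between genes. Of the 8, Hnf4a was higher and Apob and Fga were lower, and their summed level was 33875 to 40109 CPM in controls and 27833 to 33207 CPM at 427 mg/kg-d. Of 6 Kupffer cell markers 3 were lower, at 74.2 to 116 CPM and 62 to 83 CPM. Of 6 endothelial markers 1 was lower, at 171 to 192 CPM and 147 to 164 CPM. Of 5 stellate cell markers 1 was lower, at 158 to 382 CPM and 141 to 268 CPM. None of 3 cholangiocyte markers was called, at 32.9 to 45 CPM and 29.9 to 46.9 CPM, and none of 2 lymphocyte markers, at 30.4 to 43.9 CPM and 21.4 to 71 CPM. With median-ratio scaling 4 hepatocyte, 3 Kupffer cell, 3 endothelial, 1 stellate cell, 1 cholangiocyte and 2 erythroid markers were lower and none of any list was higher. Under that scaling 12.6% of all FROZ genes were lower and 12.6% higher. In FFPE at 427 mg/kg-d, Apoa1 was lower among 7 hepatocyte markers, at -0.79 ± 0.18 (SE, FDR = 0.00779), and no marker of another type was called. Of all FFPE genes, 2.41% were called in either direction. With median-ratio scaling 2 of these 7 were lower, against 1.18% of all FFPE genes.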

How the data were processed

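Liver RNA of 24 mice was measured by TempO-Seq in 48 libraries, 6 FROZ and 6 FFPE per dose. The authors aligned reads to mm10 (Partek and STAR 2.6 in the submitters' processing notes), counted RefSeq transcripts by expectation maximisation, dropped genes whose geometric mean was at most 1 and deposited log2 values of CPM with an offset of 1, separately for FROZ and FFPE. These log2 values were analysed by limma 3.58.1 (R 4.3.3) with a mean-variance trend, 24 libraries per fit and Benjamini-Hochberg FDR over all genes of a table. Dose effects, steps between adjacent doses and a linear slope were fitted without a block. The preservations were compared within mice, on the FFPE value minus the FROZ value. The animal number in the titles gives the pairing: deviations from the group means had a median correlation of 0.128 within a mouse and -0.0232 between mice of a dose over 4815 genes, and 21 of 24 mice correlated best with their own.

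The rule for members uses symbols alone, but it and the lists were chosen with earlier results of these data known. Named in full were DEGs, members called in FFPE or for a response difference, the 8 largest called increases and decreases in FROZ at 427 mg/kg-d, and 10 carriers of known liver role or attenuated probe. Other members' values were added after they were seen, and a few genes are not reported here. Annotation was GENCODE vM21 and promoters were RefSeq GRCm38.p6. Reads carried no molecular identifiers, so the limit of 3 reads covers counting error only. The fits were tested on simulated data. Scaling, offset, a low-value filter, variance prior, sample weights, the samples fitted, the block and leaving out each mouse were tried as alternatives. Summaries were made in Python 3.11.15 with pandas 2.3.3.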

Additional observations from a re-analysis of the deposited data

Results flagged for a closer look

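In 120 groups of 6 values of the named members, Dixon's ratio of the end gap to the range passed its 95% critical value in 9 groups, where chance gives about 1 in 20. In FROZ, animal 98 had the lowest Slc25a13 value at 427 mg/kg-d (10.49, next 10.66), and control animal 5 had the highest Slc25a4 value (6.29, next 3.08). In the FFPE controls, animal 3 was lowest for Slc25a37 (5.58, next 6.39) and animal 8 for Slc25a5 (1.91, next 4.62). The other 5 were low FFPE values at 198 mg/kg-d. Animal 54 was at 0 for Slc25a14 (next 3.74) and at 0 for Slc25a37 (next 5.08), and animal 49 was at 0 for Slc25a34 (next 3.25). Animal 53 was at 0 for Slc25a4 (next 4.63) and at 0.33 for Slc25a44 (next 6.38). Animals 49 and 54 are among the 4 FFPE libraries with over 1000 genes at 0, and animal 53 is not.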

How the results depend on the processing

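Counts of members called, in both directions together, stayed within 1.5 times of those reported under the alternatives tried, except as follows. By direction, median-ratio scaling turned the 8 higher and 1 lower in FROZ at 313 mg/kg-d into 4 and 3. In FROZ at 198 mg/kg-d, 1 member was called with genes of at least 10 CPM only. In FFPE at 427 mg/kg-d, 1 was called with a variance prior without trend, 5 with array quality weights and 4 with only the 2 groups compared. Leaving out 1 library gave 0 to 1 calls in FROZ at 198 mg/kg-d (1 without animal 78 of 313 mg/kg-d), 8 to 11 at 313 and 13 to 15 at 427 mg/kg-d, and 0, 0 and 2 to 3 in FFPE. Without the 4 FFPE libraries with over 1000 genes at 0, an alternative chosen after seeing the data, 3 members were called in FFPE at 427 mg/kg-d. Without the replicate block of the animal, the pairing being ignored, 0 members were called for a difference in response at each dose and 23 for level. Leaving out 1 mouse gave 0 calls for the response difference. With array quality weights Slc25a39 was called in FFPE (FDR = 0.00896) and Slc25a15 in FROZ (FDR = 0.0358). FFPE depth and genes at 0 limit what FFPE can show for low members. The cause of these changes was not tested.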
